A study of Mus musculus with 8 samples.

Results

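Cxcl1, Cxcl2, Cxcl3, Cxcl5, Cxcl15, Ccl2, Ccl20, Csf1, Csf2 and Csf3 encode secreted ligands that draw in, expand or keep alive neutrophils, monocytes and other blood cells. They were taken as the rows bearing these gene symbols, which are 10 of the 55487 genes in the deposited tables. Each symbol named 1 row, and all 10 had enough counts to be tested. Their RNA was measured in bulk in 4 mouse cell lines of lung squamous cell carcinoma, each derived from a genetically engineered mouse model, in a study of the loss of the atypical chemokine receptor ACKR3. The lines PLA4 and PLA, called the PLA lines here, were set beside PL12 and PL1, the PL lines, with 2 libraries per line and 8 in all. What the letters of the line names stand for, the alleles each line carries, any treatment and the age of the source animals are not given in the sources used here. A statement about the families rests on 2 lines in each. Because the libraries of a line are not described as separate cultures, every p-value below measures only the scatter between these libraries, which may be technical. The test between lines pools that scatter over the 4 lines, so each comparison also rests on the libraries of the lines not compared.

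Ackr3 had 50 and 33 counts in the PLA4 libraries and 6 and 3 in the PLA libraries, against 1236 and 2866 in PL12 and 7504 and 3761 in PL1. Libraries held 48857954 to 142458288 counts, so that 3 counts, the floor used here, came to 0.0211 to 0.0614 CPM (counts scaled to a fixed library size, with TMM factors). All 10 epithelial markers examined passed 1 TPM (transcript abundance corrected for transcript length) in every library, with sums of 6788 to 16492 TPM. Of these, 6 (Sox2, Krt14, Krt6a, Krt5, Trp63 and Dsg3) were lower in PL12 than in each other line. The share of all genes lower in PL12 by that rule was not computed. In either direction 37.7% of all genes were called between PLA and PL12, 35.9% between PLA4 and PL12 and 23.7% between PL12 and PL1. The sums also hold Krt8 and Krt18, keratins not particular to squamous cells. In PL12, where the sums were 6788 and 7364 TPM, Krt8 had 2324 and 2537 TPM and Krt18 had 2591 and 2905. Krt18 and Epcam were called higher in PL12 than in PL1. Krt5, a basal keratin, had 4807 and 5933 CPM in PLA4, 6538 and 6438 in PLA, 284 and 315 in PL12, and 5251 and 2645 in PL1. Trp63, a basal-cell transcription factor, had 306 and 386 CPM in PLA4, 352 and 360 in PLA, 29.2 and 26.3 in PL12, and 381 and 373 in PL1. PL12 also had the most Cxcl3 and Cxcl5 RNA, and the part of these markers in that result was not tested. The libraries of PLA4 and those of PL1 stood apart from each other far more than those of the other lines. Over genes with at least 10 counts, the chi-square statistic per degree of freedom between the libraries of a line was 549 in PLA4 and 392 in PL1, and 8.19 in PLA and 36.3 in PL12. Differences of PLA4 that passed for the 10 genes are therefore given with what leaving out libraries did to them.

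Chemokines of the CXC class that carry a glutamate-leucine-arginine (ELR) motif bind the receptor CXCR2 and pull neutrophils out of the blood into tissue. Cxcl1, Cxcl2, Cxcl3, Cxcl5 and Cxcl15 are the ELR genes described here. Colony-stimulating factors act earlier, on the bone marrow: Csf3 encodes G-CSF, the main driver of neutrophil production, Csf2 encodes GM-CSF, and Csf1 encodes M-CSF, which sustains monocytes and macrophages. Epithelial and tumour cells switch on many of these genes through NF-kB after interleukin-1, interleukin-17 or tumour necrosis factor, and their short-lived mRNAs are controlled by decay factors.

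The ELR genes lie in 1 cluster on chromosome 5 (GRCm38, GENCODE M21), and their start regions are printed here because 3 of them carry the same NF-kB-type element. RefSeq promoters (GRCm38.p6, 250 bases before to 50 after the start) matched 7 of the 10 genes, and Cxcl5, Ccl2 and Csf3 had none to search. Each line below runs 5′ to 3′ on the plus strand from 100 bases before the start to 20 after it, and capitals mark the longest run of bases that Cxcl1, Cxcl2 and Cxcl3 share before their starts. That run, GGGAATTTCCC, is 11 bases long and holds a match to the NF-kB consensus.
Cxcl1, chr5:90891145-90891264: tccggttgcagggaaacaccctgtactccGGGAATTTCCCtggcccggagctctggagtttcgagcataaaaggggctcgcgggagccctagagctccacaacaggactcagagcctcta
Cxcl2, chr5:90903799-90903918: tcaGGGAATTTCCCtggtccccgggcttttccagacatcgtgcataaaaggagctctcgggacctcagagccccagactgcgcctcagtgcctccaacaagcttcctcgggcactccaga
Cxcl3, chr5:90786001-90786120: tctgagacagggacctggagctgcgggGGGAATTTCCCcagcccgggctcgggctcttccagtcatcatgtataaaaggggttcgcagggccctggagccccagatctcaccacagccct
Cxcl15, chr5:90794434-90794553: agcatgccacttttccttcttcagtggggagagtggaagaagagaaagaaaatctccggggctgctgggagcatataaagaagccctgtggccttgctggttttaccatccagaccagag

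Searched on both strands of the 300-base promoters, GGGAATTTCCC occurred once each in Cxcl1, Cxcl2 and Cxcl3, beginning 71, 97 and 73 bases before the start, and not in Cxcl15, Ccl20, Csf1 or Csf2. It occurred in 14 of the 32851 RefSeq promoters of that length (0.0426%), which include the 3 that it was taken from. The AP-1 motif TGANTCA, also searched on both strands, was in 7.81% of promoters and in none of the 7. A match is a description of letters and does not show that a factor binds.

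In gene order, Cxcl5 (90759360 to 90761624), Cxcl3 (90786103 to 90789600), Cxcl15 (90794534 to 90803067), Cxcl1 (90891241 to 90893115) and Cxcl2 (90903871 to 90905938) share the plus strand and span 146579 bases. Ppbp and Pf4, the other protein-coding genes of that span, encode platelet-type CXC chemokines. Csf2 (54247271 to 54249667, minus strand), Ccl2 (82035571 to 82037453) and Csf3 (98701263 to 98703629) are on chromosome 11, Csf1 (107741048 to 107760469, minus strand) on chromosome 3 and Ccl20 (83116766 to 83119167) on chromosome 1. Among the ELR genes described here only Cxcl2 and Cxcl3 had 50-base stretches in common within their annotated transcripts. There were 126 of them, which is 5.84% of those of Cxcl2 and 3.51% of those of Cxcl3. Ppbp was not part of that search. The expected counts of Cxcl2 and Cxcl3 were not whole in any library, so part of each level depends on how reads shared by the pair were divided. The size of that part was not measured. It could be larger for Cxcl2 where Cxcl3 had many more counts. In the PLA4 libraries Cxcl2 had 262 and 265 expected counts and Cxcl3 had 1766 and 5268.

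The 4 lines produced very different amounts of neutrophil chemokine RNA, and the order was PL12, PLA, PL1 and PLA4 for Cxcl5. PLA4 was the low line for Cxcl1, Cxcl2, Cxcl3 and Cxcl5, the abundant ELR genes among the 10. Ppbp, an ELR gene outside the 10, had 18602 and 18928 TPM in PLA and took another order, given further below. Cxcl5 had 470 and 699 CPM in PLA4, 2458 and 2389 in PLA, 6684 and 6595 in PL12, and 1599 and 2436 in PL1. The PLA4 libraries were lowest, those of PLA and PL1 overlapped, and those of PL12 were highest. It was the leading gene of the group in every library and was the 8th and 7th most abundant gene by TPM in the PL12 libraries. In the PLA4 libraries its rank by TPM was 316 and 218, in PLA 42 and 43, and in PL1 96 and 44. On the same per-length scale, Cxcl5 made up 57.3% to 79.3% of the RNA of the 10 genes together, and the 5 ELR genes made up 87.0% to 98.9%. The summed level of the 10 genes was 595 and 1038 TPM in PLA4, 4414 and 4381 in PLA, 10132 and 9961 in PL12, and 2495 and 4367 in PL1.

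**Figure D1:**
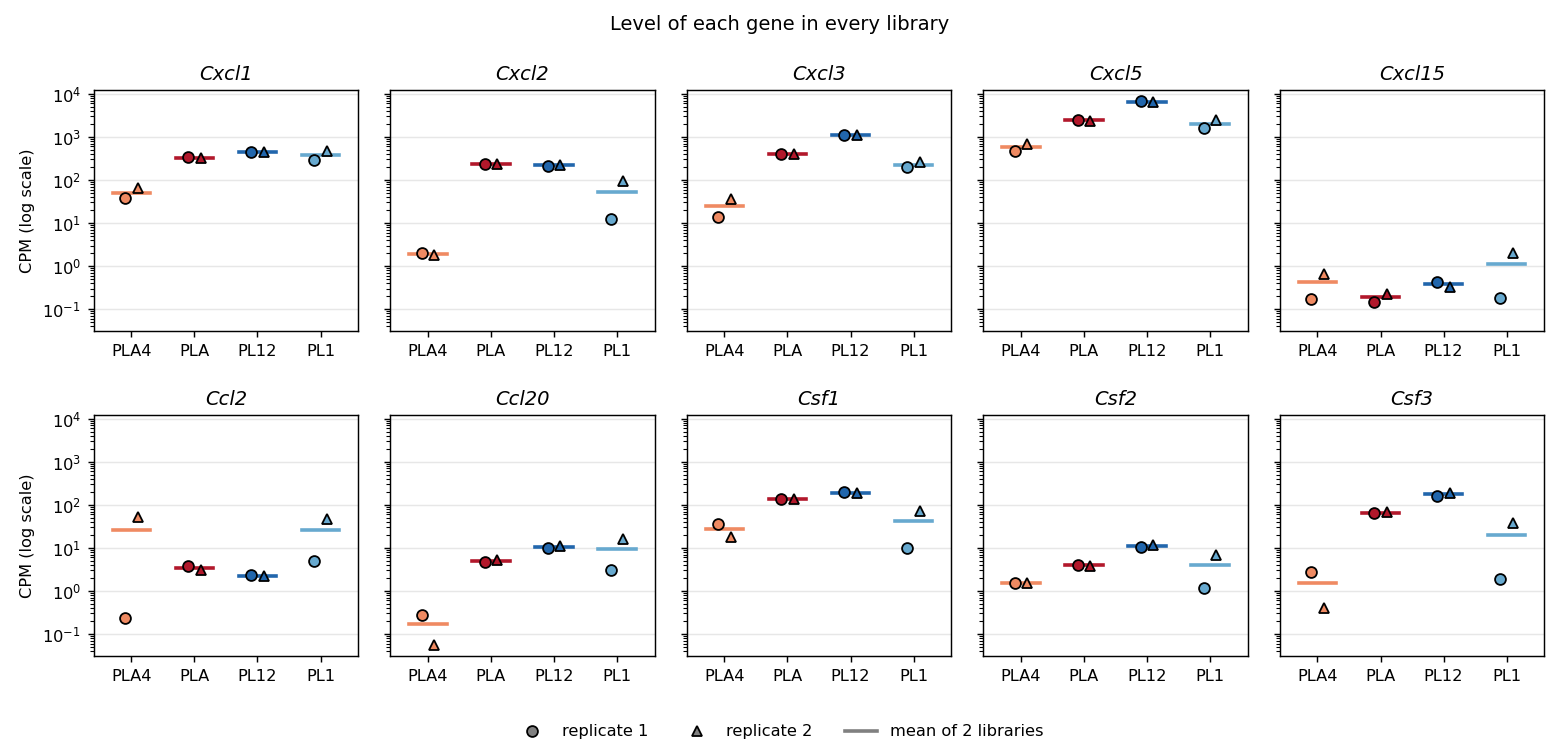
Level of each of the 10 genes in the 8 libraries, in TMM-scaled CPM on a log axis shared by all panels, with circles for replicate 1, triangles for replicate 2 and bars for the mean of the 2 libraries of a line. Both PLA4 points lie under all other points for Cxcl1, Cxcl2, Cxcl3, Cxcl5 and Ccl20, and the points of PL1 spread widely for Cxcl2, Cxcl15, Ccl2, Ccl20 and the colony-stimulating factors.

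Cxcl1, the mouse gene known as KC, had 38.7 and 63.6 CPM in PLA4, 338 and 326 in PLA, 441 and 453 in PL12, and 285 and 467 in PL1. Both PLA4 libraries were below the other 6, among which the PL1 libraries enclosed those of PLA and PL12. The means were 51.2 ± 17.6 CPM in PLA4, 332 ± 8.49 in PLA, 447 ± 8.53 in PL12 and 376 ± 129 in PL1 (SD, n = 2 libraries each). Cxcl1 was lower in PLA4 by -2.70 ± 0.32 on the log2 scale against PLA (SE, adjusted p = 0.00319), by -3.12 against PL12 (adjusted p = 0.00148) and by -2.88 against PL1 (adjusted p = 0.00896, edgeR with Benjamini-Hochberg adjustment over 18674 genes, as for every adjusted p below). These are levels 6.48, 8.72 and 7.35 times lower. No difference in Cxcl1 passed among PLA, PL12 and PL1, with adjusted p between 0.301 and 0.679 in edgeR. It was the only one of the 10 genes that stayed lower in PLA4 than in each other line under all 17 alternative settings and left-out libraries. With libraries left out the log2 difference ran from -3.03 to -2.38 against PLA, from -3.53 to -2.80 against PL12 and from -3.57 to -2.17 against PL1.

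Cxcl2, which encodes MIP-2, had 2.03 and 1.83 CPM in PLA4, 234 and 235 in PLA, 214 and 225 in PL12, and 12.6 and 94.8 in PL1. Both PLA4 libraries were below every other, PLA lay just above PL12, and the PL1 libraries lay in between and differed 7.52-fold from each other. Against PLA the level in PLA4 was 121-fold lower (-6.92 ± 0.99, adjusted p = 0.00521), against PL12 it was 114-fold lower (adjusted p = 0.00401), and against PL1 27.8-fold lower (adjusted p = 0.0310, edgeR). The differences from PLA and PL12 passed in all 17 alternatives and that from PL1 in 10 of 17. It was -5.62 without PL1 replicate 1 and -2.70 without PL1 replicate 2, against -4.80 with both, and it no longer passed without any 1 library of PLA4, PLA or PL12 (adjusted p up to 0.0898, edgeR). PLA and PL12 differed by 0.10 ± 0.76 on the log2 scale (adjusted p = 0.933, edgeR).

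Cxcl3 had 13.7 and 36.5 CPM in PLA4, 399.2 and 399.4 in PLA, 1091 and 1120 in PL12, and 197 and 261 in PL1. No libraries of different lines overlapped, and the order of lines was PL12, PLA, PL1 and PLA4. The level in PLA4 was 15.9-fold lower than in PLA (-3.99 ± 0.47, adjusted p = 0.00313), 44.1-fold lower than in PL12 (adjusted p = 0.00109) and 9.12-fold lower than in PL1 (adjusted p = 0.0173, edgeR). The differences of PLA4 from PLA and PL12 passed in all 17 alternatives, and were -4.80 and -6.34 without PLA4 replicate 2, against -3.99 and -5.46 with both libraries. That from PL1 passed in 13 of 17, was -4.05 without PLA4 replicate 2, against -3.19, and ended without any 1 library of PLA or PL12 (adjusted p up to 0.0638, edgeR). PLA was below PL12 (-1.47 ± 0.43, adjusted p = 0.0371) and PL12 was above PL1 (2.27 ± 0.44, adjusted p = 0.0156), while PLA and PL1 did not differ past the threshold (adjusted p = 0.197, edgeR).

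For Cxcl5, which encodes the neutrophil attractant LIX, the same comparisons passed with smaller folds. PLA4 was 4.15-fold lower than PLA (-2.05 ± 0.29, adjusted p = 0.00516), 11.4-fold lower than PL12 (adjusted p = 9.75e-04) and 3.45-fold lower than PL1 (adjusted p = 0.0221, edgeR). The first 2 of these passed in all 17 alternatives. The difference from PL1 passed in 13, ran from -2.36 to -1.20 with libraries left out, and ended without any 1 library of PLA or PL12 (adjusted p up to 0.0772, edgeR). PLA was below PL12 (-1.45 ± 0.29, adjusted p = 0.0102), PL12 was above PL1 (1.72 ± 0.29, adjusted p = 0.0102), and PLA and PL1 were not told apart (0.27 ± 0.28, adjusted p = 0.510, edgeR).

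Cxcl15, which encodes lungkine, an ELR chemokine of mouse lung epithelium, was nearly silent. It had 0.170 and 0.665 CPM in PLA4, 0.146 and 0.228 in PLA, 0.430 and 0.331 in PL12, and 0.184 and 2.01 in PL1. These rest on 16 to 228 counts per library, the lines overlapped, and no comparison of Cxcl15 passed (lowest adjusted p = 0.142, PLA against PL1, edgeR). It lies between Cxcl3 and Cxcl1 in the cluster, and its level by TPM was 0.110 to 1.58, against 23.3 to 1918 for Cxcl3 and 70.1 to 868 for Cxcl1.

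The proportions of the ELR genes also varied by line. Cxcl2 stood at 0.0623 and 0.0300 times the level of Cxcl1 by TPM in PLA4, 0.739 and 0.784 times in PLA, 0.439 and 0.50 times in PL12, and 0.0460 and 0.198 times in PL1. The PLA4 and PL1 libraries were thus below those of PLA and PL12, and PLA4 replicate 1 overlapped the range of PL1. For Cxcl3 this ratio was 0.332 and 0.545 in PLA4, 1.18 and 1.25 in PLA, 2.32 and 2.34 in PL12, and 0.662 and 0.538 in PL1, with PLA4 and PL1 again the overlapping pair. For Cxcl5 it was 6.74 and 6.30 in PLA4, 4.37 and 4.49 in PLA, 8.09 and 8.22 in PL12, and 3.23 and 3.01 in PL1, and no lines overlapped. Cxcl5 was thus lower in PLA4 than elsewhere by a smaller factor than Cxcl1 was, except against PL12.

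**Figure D2:**
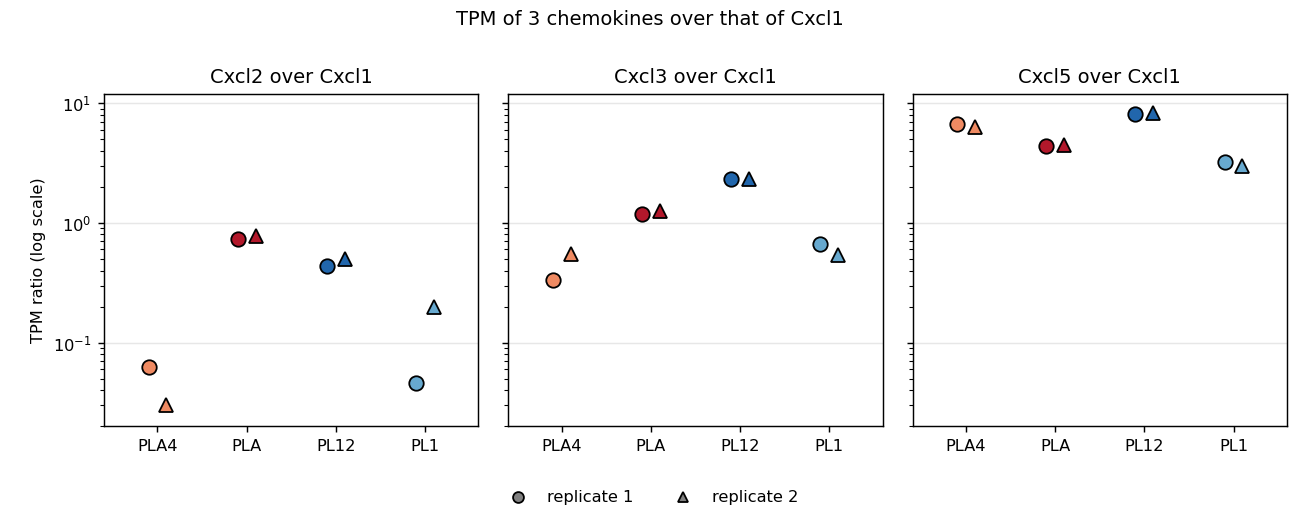
Ratio of the TPM of Cxcl2, Cxcl3 and Cxcl5 to that of Cxcl1 in each library on a log axis, with circles for replicate 1 and triangles for replicate 2. The ratio of Cxcl2 ranges from 0.0300 in a PLA4 library to 0.784 in a PLA library, and that of Cxcl5 from 3.01 in a PL1 library to 8.22 in a PL12 library.

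Ccl2 and Ccl20 call other cells: CCL2 attracts monocytes through CCR2, and CCL20 attracts lymphocytes and dendritic cells through CCR6. Ccl20 had 0.279 and 0.0554 CPM in PLA4, 4.82 and 5.11 in PLA, 9.70 and 11 in PL12, and 2.99 and 16.3 in PL1. The PLA4 libraries, with 36 and 8 counts, were below all others, and the PL1 libraries lay on either side of PLA and PL12. Ccl20 was 29.8-fold lower in PLA4 than in PLA (adjusted p = 0.0169), 62.1-fold lower than in PL12 (adjusted p = 0.00826) and 57.8-fold lower than in PL1 (adjusted p = 0.0298, edgeR). Without PLA4 replicate 1 these differences were -6.46, -7.51 and -7.41 on the log2 scale, and without PLA4 replicate 2 they were -4.08, -5.21 and -5.09, against -4.90, -5.96 and -5.85 with both. The difference from PL1 was -4.16 without PL1 replicate 2 and -6.61 without PL1 replicate 1. The difference from PL12 passed in all 17 alternatives. That from PLA passed in 14 and ended without PLA4 replicate 2 or either PLA library, and that from PL1 passed in 12 and ended without any 1 library of PLA or PL12 (adjusted p up to 0.0896, edgeR). None of the other comparisons of Ccl20 passed, with adjusted p from 0.370 to 0.945 in edgeR.

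Ccl2 followed the libraries rather than the lines. It had 0.240 and 53.1 CPM in PLA4, 3.87 and 3.13 in PLA, 2.31 and 2.19 in PL12, and 4.96 and 46.0 in PL1. PLA4 held both the lowest and the highest library of the series, from 31 and 7671 counts, and no comparison passed (lowest adjusted p = 0.206, PLA4 against PL12, edgeR). Without PLA4 replicate 2 the sign of the Ccl2 difference turned in all 3 comparisons of PLA4, for example to -3.22 against PL12, where it was 3.57 with both libraries. Ccl7, a close relative of Ccl2 on the same chromosome that was singled out after its values were seen, was high in the same 2 libraries. It had 0.224 and 19.3 CPM in PLA4, 0.0893 and 0.0846 in PLA, 0.0614 and 0.0460 in PL12, and 0.587 and 19.2 in PL1. The summed level of 10 fibroblast markers was 543 and 677 TPM in the PLA4 libraries and 173 and 152 TPM in those of PL1. Of these sums Acta2 alone held 540 and 674 TPM in PLA4 and 173 and 66.8 TPM in PL1. Among the other markers Col1a1, a collagen gene, had 4.36 and 0.436 CPM in PLA4 and 0.575 and 254 in PL1. Dcn, which encodes the matrix protein decorin, had 0.0387 and 0.886 CPM in PLA4 and 0.0230 and 10.7 in PL1. Their part in the Ccl2 levels was not tested.

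Csf3 had 2.70 and 0.395 CPM in PLA4, 66.0 and 66.5 in PLA, 160 and 190 in PL12, and 1.85 and 37.1 in PL1. PLA4 overlapped PL1, whose replicate 1 lay between the PLA4 libraries, and both were below PLA and PL12. Csf3 was 42.9-fold lower in PLA4 than in PLA (-5.42 ± 1.51, adjusted p = 0.0398) and 113-fold lower than in PL12 (-6.82 ± 1.61, adjusted p = 0.0196, edgeR). Without PLA4 replicate 1 these were -7.39 and -8.78, and without PLA4 replicate 2 they were -4.55 and -6.02. The difference from PLA passed in 11 of 17 alternatives and ended without PLA4 replicate 2 or any 1 library of PLA or PL12 (adjusted p up to 0.126, edgeR). That from PL12 passed in 14 and ended without PLA4 replicate 2 or either PL12 library. Against PL1 the difference of -3.66 ± 1.40 did not pass (adjusted p = 0.147, edgeR).

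Csf1 had 36.0 and 18 CPM in PLA4, 137.2 and 136.8 in PLA, 194 and 184 in PL12, and 9.90 and 73.1 in PL1. The PL1 libraries enclosed those of PLA4, and PLA and PL12 were above both lines. Csf1 was 7.0-fold lower in PLA4 than in PL12 (-2.81 ± 0.86, adjusted p = 0.0446, edgeR), a call that was kept in 8 of 17 alternatives and ended without any 1 library of PLA4, PLA or PL12. It was -3.39 without PLA4 replicate 1 and -2.39 without PLA4 replicate 2. Against PLA the difference was -2.34 ± 0.84 (adjusted p = 0.0812, edgeR). Csf2 had 1.52 and 1.54 CPM in PLA4, 4.11 and 3.86 in PLA, 10.6 and 11.9 in PL12, and 1.20 and 6.94 in PL1. PL12 held the highest libraries of Csf2, and PL1 again enclosed PLA4 and PLA. PLA4 was 7.35-fold below PL12 for Csf2 (-2.88 ± 0.74, adjusted p = 0.0263, edgeR), and no other comparison of it passed (adjusted p from 0.143 to 0.981). That call was kept in 11 of 17 alternatives and ended without any 1 library of PLA4, PLA or PL12 (adjusted p up to 0.105, edgeR).

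Counted over the group, the largest number of called genes separated PLA4 from PL12, with 8 of the 10 lower in PLA4 and none higher, where 35.9% of all genes tested were called and 16.8% were called lower. The exceptions were Ccl2 and Cxcl15. Against PLA, 6 were lower in PLA4 and none higher (29.1% of all genes called, 14.9% lower), and against PL1 5 were lower and none higher (8.53% called, 3.93% lower). The median log2 difference of the 10 genes was -3.32 against PL12, -2.52 against PLA and -2.33 against PL1, beside medians of 0.02, 0.04 and 0 over all genes tested. These 3 comparisons share the PLA4 libraries. Against PL1, far fewer of all genes were called as well when 1 library of PLA or PL12 was left out. Against PL12 the count was 5 without PLA4 replicate 2 or without either PL12 library, and against PL1 it was 1 without any 1 of the PLA or PL12 libraries.

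Cxcl1, Cxcl2, Cxcl3, Cxcl5 and Ccl20 were lower in PLA4 than in each of the other 3 lines, a rule chosen after the data were seen, which called 3.53% of all genes and 1.70% as lower. The same 5 genes had both PLA4 libraries below the other 6, as did 8.95% of all genes tested. Leaving out PLA4 replicate 2 left 3 of the 10 called by this rule and leaving out PLA4 replicate 1 left 4. Without PL1 replicate 1 it called 7 and without PL1 replicate 2 it called 5. Without any 1 of the PLA or PL12 libraries it called only Cxcl1 of the 10, and far fewer of all genes.

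Between the families the group did not divide. None of the 10 passed, with 1 sign throughout, when each PLA line was tested against each PL line (4 comparisons, passed by 1.99% of all genes), none passed with DESeq2 under the same rule, and none had all PLA-line libraries on one side of all PL-line libraries, as 15.7% of genes did. On profiles summed per line, with 2 lines per family, edgeR called none of the 10 at an adjusted p under 0.05 and none at an unadjusted p under 0.05, DESeq2 called none, and 0% of all genes passed in edgeR. The differences there were negative for 9 of 10 genes with a median of -1.43, beside 0.04 over all genes, and Ccl2 was the exception at 0.06 ± 1.5. For Cxcl1 the value was -1.11 ± 0.92 and for Cxcl5 -1.52 ± 0.95 (SE, PLA lines minus PL lines). Since the PLA and PLA4 lines differed from each other as described, these averages hold unlike lines.

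PLA and PL12, whose libraries agreed closely, differed in 2 of the 10 genes. Cxcl3 and Cxcl5 were lower in PLA, where 37.7% of all genes were called and 17.3% were called lower. Both calls ended when any library of PLA or PL12 was left out. PLA against PL1 called none of the 10 in edgeR, with 27.4% of all genes called. 1 of them, Cxcl2, had an unadjusted p under 0.05 (adjusted p = 0.0906), and DESeq2 called 1. Without PL1 replicate 2 edgeR called 4 of the 10 in that comparison, and without PL1 replicate 1 it called 2. PL12 was above PL1 for Cxcl3 and Cxcl5 (23.7% of all genes called, 11.2% higher), and with DESeq2 4 of the 10 were called. The median over the 10 genes was 1.59 for PL12 minus PL1, beside -0.03 for all genes. Without PL1 replicate 2 edgeR called 6, and without either PL12 library it called none.

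**Figure D3:**
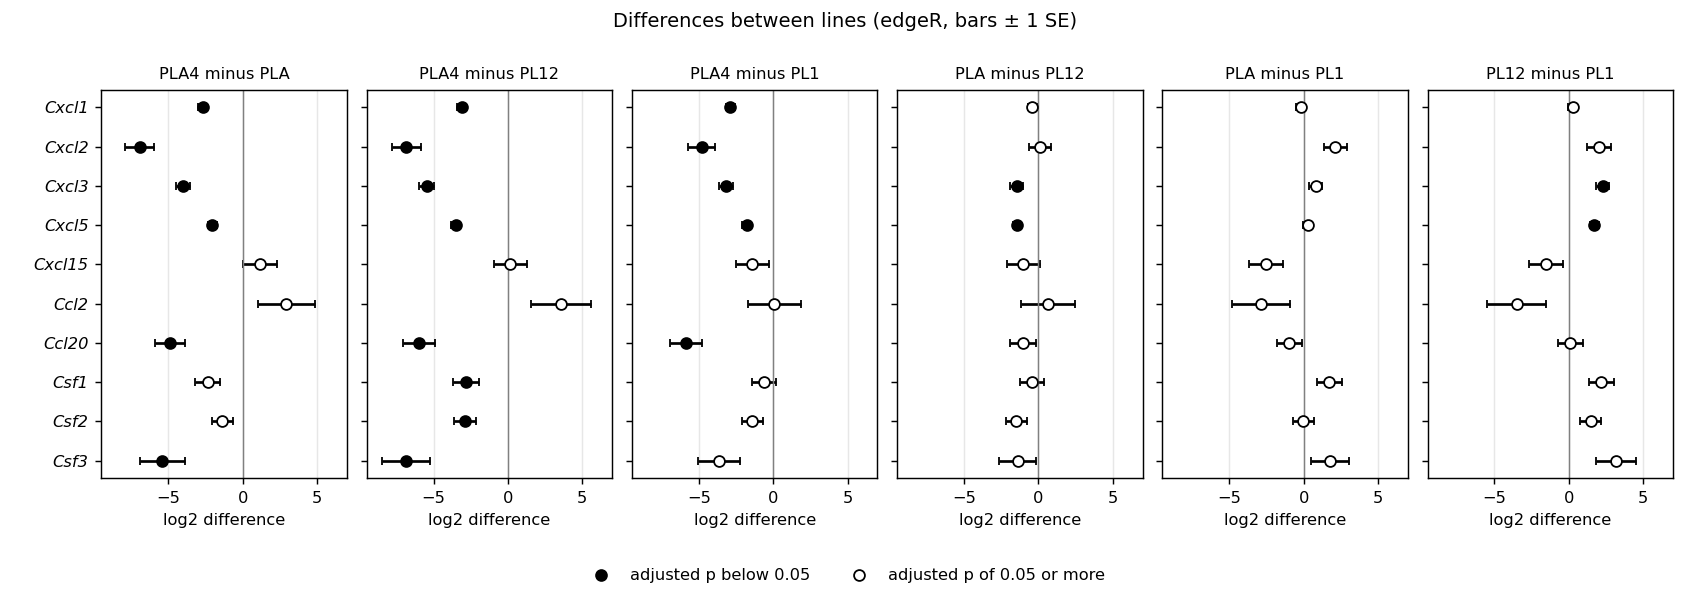
Differences between lines for each gene as log2 values from edgeR (points) with bars of ± 1 SE, 1 panel per comparison, and filled points where the adjusted p was below 0.05. Filled points number 6, 8 and 5 in the PLA4 panels, all left of 0, and 2, 0 and 2 in the panels of PLA against PL12, PLA against PL1 and PL12 against PL1.

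The libraries within a line were compared for the 9 genes that averaged 5 CPM or more, which leaves out Cxcl15. In PL1, 6 of the 9 were more than 2-fold higher in replicate 2 than in replicate 1 and none was 2-fold lower, where 9.24% of genes at that level differed so and 6.21% were higher. Csf3 led with 20.0-fold, followed by Ccl2 (9.28), Cxcl2 (7.52), Csf1 (7.39), Csf2 (5.8) and Ccl20 (5.44). Cxcl1, Cxcl3 and Cxcl5 changed less, by 1.64, 1.33 and 1.52-fold. In PLA4, 5 of the 9 differed over 2-fold (10.6% of genes did), and in mixed directions. Ccl2 was 221-fold higher and Cxcl3 2.67-fold higher in replicate 2, and Csf3 was 6.85-fold, Ccl20 5.03-fold and Csf1 2.01-fold lower in it. In PLA and in PL12 none of the 9 differed so (0.102% and 0.447% of genes did), and the largest ratio was 1.23 in PLA and 1.18 in PL12. These are single pairs of libraries and carry no test.

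**Figure D4:**
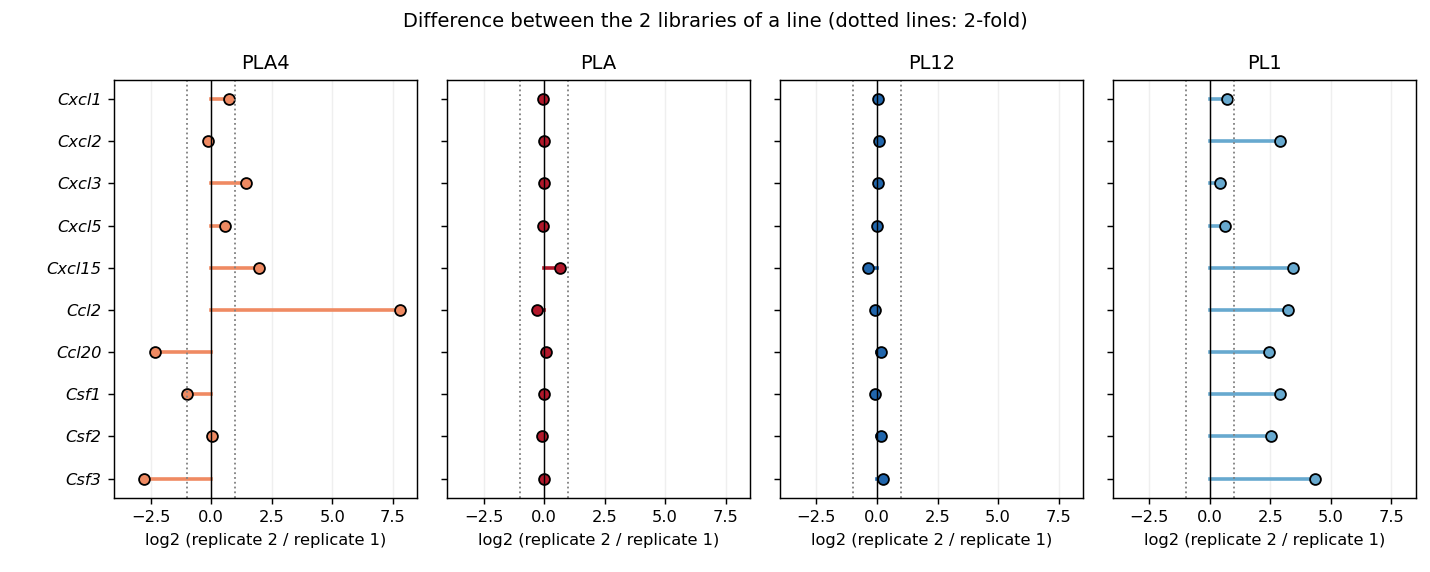
Log2 ratio of replicate 2 over replicate 1 for each gene within each line, with dotted lines at 2-fold. All genes in PLA and PL12 lie inside the dotted lines, those of PL1 lie right of 0, and those of PLA4 lie on both sides.

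The other chemokine ligands were counted in lists chosen with results of these data known. Of 12 further CXC, XC and CX3C ligands, 8 were tested, and none was lower or higher in PLA4 than in each other line (3.53% of all genes were). Ppbp, the ELR gene next to Cxcl5 in the cluster and a ligand of CXCR2 once processed, was above Cxcl5 by TPM in PLA4 (1429 and 1020), PLA (18602 and 18928) and PL1 replicate 1 (3711). It was close to Cxcl5 in PL12 (6848 and 6451) and below it in PL1 replicate 2 (1051). It was lower in PLA4 than in PLA (-3.90, adjusted p = 0.00744) and than in PL12 (-2.45, adjusted p = 0.0212), but unlike Cxcl5 was highest in PLA, which exceeded PL1 by 2.94 (adjusted p = 0.0165, edgeR). The difference of PLA4 from PL1 in Ppbp did not pass (-0.96, adjusted p = 0.307, edgeR). Of 19 other CC ligands, 7 were tested, of which 3 were lower in PLA4 than in PLA (as were 14.9% of all genes), 2 than in PL12 (16.8%) and none than in PL1. Ccl9, an attractant of myeloid cells in mice, had 19.0 and 1.36 CPM in PLA4, 2347 and 2112 in PLA, 234 and 223 in PL12, and 156 and 594 in PL1. It was lower in PLA4 than in PLA (-7.77, adjusted p = 0.0116) and than in PL12 (-4.49, adjusted p = 0.0335), and the difference from PL1 did not pass (-5.20, adjusted p = 0.0594, edgeR).

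Receptors of the 10 ligands were scarce. Their 10 genes summed to 8.46 to 21.1 TPM per library, Cxcr1 was at 0 in all 8, and 6 were tested. Cxcr2, which binds the ELR ligands, had at most 0.123 CPM. Csf2rb, the shared beta chain of the GM-CSF receptor, had 16 and 2.49 CPM in PLA4 and 10.9 and 12.5 in PLA, against 0.0205 and 0 in PL12 and 0.127 and 2.94 in PL1.

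The list of upstream cytokines and their receptors gave 18 tested genes (21 in the list, Il17a at 0). Among them Il1a was the only one lower in PLA4 than in each other line (1.70% of all genes were). It encodes interleukin-1 alpha and had 20.1 and 14.9 CPM in PLA4, 150 and 144 in PLA, 514 and 405 in PL12, and 90.3 and 166 in PL1. Its differences from PLA4 were -3.08 for PLA4 minus PLA (adjusted p = 0.00244), -4.72 for PLA4 minus PL12 (adjusted p = 6.59e-04) and -2.88 for PLA4 minus PL1 (adjusted p = 0.00925, edgeR). Tnf, which encodes tumour necrosis factor, took another order, with 12.9 and 6.97 CPM in PLA4, 54.5 and 53.5 in PLA, 1.74 and 1.40 in PL12, and 15.1 and 25.3 in PL1.

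Of 18 NF-kB subunit and feedback genes, all tested, 8 were lower in PLA4 than in PL12 (16.8% of all genes were) and 3 higher. Against PLA 6 were lower in PLA4 (14.9%) and against PL1 3 were (3.93%), with 0 higher in both. In PLA4 2 were lower than in each other line (1.70% of all genes were). They were Nfkbie, which encodes an inhibitor of NF-kB, and Cebpb, a transcription factor of inflammation. Nfkbie had 4.41 and 2.80 CPM in PLA4, 32.8 and 31.9 in PLA, 28.1 and 32.2 in PL12, and 8.60 and 8.56 in PL1. Nfkb1, which encodes the p50 precursor, had 178 and 145 CPM in PLA4, 158 and 159 in PLA, 280 and 262 in PL12, and 201 and 275 in PL1. It was lower in PLA4 than in PL12 (-0.75, adjusted p = 0.0233), and the differences of PLA4 from PLA (0.03, adjusted p = 0.918) and from PL1 (-0.56, adjusted p = 0.110, edgeR) did not pass. Of 10 mRNA decay regulators, 1 was lower in PLA4 than in each other line (1.70% of all genes were). This was Zc3h12a, which encodes the RNase Regnase-1 and had 45.8 and 28.6 CPM in PLA4, 98.3 and 104 in PLA, 82.1 and 91.1 in PL12, and 69.8 and 92.5 in PL1.

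The profiles most like each gene over the 8 libraries were ranked by the root mean square difference of log2(CPM + 1) after centring. They were sought among 10740 genes of at least 5 CPM. Genes with numbered, Rik, pseudogene or mitochondrial symbols were passed over in naming the nearest. Nos2, the inducible nitric oxide synthase, was nearest to both Csf3 (0.334) and Cxcl2 (0.726). Il1a was nearest to Cxcl3 (0.624), followed by Prss22 (0.698) and Ptgs2, the inducible cyclooxygenase (0.705). Tnip3, which encodes an inhibitor of NF-kB signalling, was nearest to Ccl20 (0.221), Pfkp, a phosphofructokinase, to Cxcl1 (0.153) and Steap1 to Cxcl5 (0.294). The nearest genes were Slc28a3 for Csf1 (0.330), Ero1lb for Csf2 (0.261) and Has3, a hyaluronan synthase, for Ccl2 (0.924, the poorest match). Among the 10 themselves, Cxcl1 lay closest to Ccl20 (0.467) and to Cxcl5 (0.565), Cxcl2 to Csf3 (0.831), and Ccl2 was at least 2.10 from each of the others compared. The neighbours on the chromosome, Cxcl1 and Cxcl2, were 1.62 apart. With 8 libraries of 4 lines, these distances describe likeness on that scale alone, and the added 1 CPM shrinks differences at low levels. Ccl20, at 0.279 and 0.0554 CPM in PLA4, was 29.8-fold lower there than in PLA. For Cxcl1, to which it lay closest among the 10, that fold was 6.48.

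Other cell types could add RNA to a bulk sample, and fewer cells of a type cannot be told apart from less RNA per cell. Of 10 neutrophil markers, Elane, Camp, Retnlg and Ngp were at 0 in all libraries. Their sum was 503 and 64.4 TPM in PLA4, 1622 and 1687 in PLA, 316 and 260 in PL12, and 30.8 and 901 in PL1, of which Ltf, also made by epithelium, was the largest part in 7 libraries and 3.17 TPM in the eighth, PL1 replicate 1. The sum of 10 monocyte and macrophage markers was 59.6 and 12.5 TPM in PLA4, 191 and 187 in PLA, 240 and 233 in PL12, and 12.8 and 112 in PL1, with Marco at 0 and Cd14 at 5.78 to 180 CPM. That sum was lowest in PLA4 replicate 2 and PL1 replicate 1, the libraries with the least Csf3, and its part in that result was not tested. Cd14 was the largest part of the sum in every library. Adgre1, Lyz2 and Fcgr1 had 2, 21 and 1 counts over the 8 libraries together, while Mrc1 reached 64.8 CPM in PL12 and Itgam 51.4 CPM in PLA. Of 10 lymphocyte markers, Cd3e, Cd3d and Ncr1 were at 0, and the sum was 2.17 to 5.58 TPM. Of 8 endothelial markers Cldn5 was at 0, and the sum was 2.25 to 6.96 TPM. The sum of the 10 fibroblast markers, none at 0 in all libraries, was 543 and 677 TPM in PLA4, 71.5 and 62.2 in PLA, 9.17 and 8.11 in PL12, and 173 and 152 in PL1. Acta2 made up most of it in PLA4, with 582 and 763 CPM, and its part in the low chemokine level of PLA4 was not tested.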

How the data were processed

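Total RNA of the 4 lines was reverse transcribed with a SMARTer kit and made into libraries with Nextera XT, per the labels' protocols. Per the submitters' processing notes, the tools were FastQC, STAR, RSEM and DESeq2 and the genome build was GRCm38, while tool versions and the annotation are not given in the sources used here. For each gene the authors deposited expected counts (estimated counts, which need not be whole) and TPM, per the file headers. Gene identifiers matched GENCODE M21 for 55227 of 55487 genes without their version number, and coordinates come from that release.

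Expected counts, of which 14.2% were not whole, were rounded. Genes were kept with filterByExpr (minimum count 10, minimum total count 15), scaled with TMM and tested with edgeR 4.0.16 (quasi-likelihood test, 1 mean per line, 4 residual degrees of freedom) under R 4.3.3. The p-values were adjusted by Benjamini-Hochberg over 18674 genes with a threshold of 0.05. Profiles summed per line, 2 per family, were tested over 18822 genes with 2 residual degrees of freedom. The test was run on simulated data in which all lines had the same scatter. PLA4 and PL1 scattered far more than PLA and PL12 here, so that run does not check the test under such unequal scatter. Alternatives were DESeq2 1.42.0, DESeq2 size factors, other filters, limma 3.58.1 on log2(TPM + 1) and log2(TPM + 0.1), a replicate block and left-out libraries. Depth of 48857954 to 142458288 counts per library sets the floors, which cover counting error only.

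Named genes are the 10 described, up to 4 of each pathway list called in at least 1 line comparison with a mean of at least 5 CPM (by highest mean), up to 3 of each list of other cell types (by highest mean) and its markers at 0, and the 3 genes nearest to each profile, some of which are not printed. Cebpb, Nfkbie, Tnf, Ccl7, Cxcr2, Dcn, Trp63, Sox2, Dsg3, Krt8, Krt18, Epcam, Adgre1, Lyz2 and Fcgr1 were named after their values were seen. The 10 genes and the lists were chosen with earlier results of these data known. Equal replicate numbers were not taken to pair libraries of different lines. Their deviations from the line means correlated at -0.194 to 0.0148, which cannot decide whether such libraries were prepared together.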

Additional observations from a re-analysis of the deposited data

How the results depend on the processing

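Each result was recomputed under 17 alternatives (16 on summed profiles), of which 7 change a setting (6 on summed profiles) and 10 leave out libraries. The number of the 10 genes called lower in PLA4 than in each other line, 5 as reported, was 3 with the replicate block and 1 to 9 with libraries left out. Cxcl1 passed that rule in 17 of 17 alternatives, Cxcl3 and Cxcl5 in 13, Ccl20 in 11, Cxcl2 in 10 and Csf3 in 4. PLA4 minus PL1, with 5 calls, gave 3 with the replicate block and 1 to 10 with libraries left out. With libraries left out PLA4 minus PL12 (8 calls) gave 5 to 9, PLA4 minus PLA (6) gave 4 to 10, and PLA minus PL12 (2) gave 0 to 9. PLA minus PL1, with 0 calls, gave 1 under DESeq2, with no filter on low counts and with limma on log2(TPM + 0.1), and 0 to 9 with libraries left out. PL12 minus PL1, with 2, gave 4 under DESeq2, 5 with no filter on low counts and 0 to 9 with libraries left out. The count that passed in each comparison of a PLA with a PL line, 0 as reported, was 0 to 3 with libraries left out. It was 3 without both PL1 replicate 1 and PLA4 replicate 2. On summed profiles no alternative called any of the 10. In PLA4 minus PL1 and by the rule on PLA4 and each other line, the lowest counts came without 1 PLA or PL12 library, and without PLA4 replicate 2 PLA4 minus PLA gave 4 and PLA4 minus PL12 gave 5. The highest counts between lines came without 1 library each of PL1 and PLA4. Counts over all genes were also much higher there, and much lower in PLA4 minus PL1 without 1 PLA or PL12 library. Such rises, and such falls without 1 PLA or PL12 library, are therefore not particular to the 10 genes. Without PLA4 replicate 2, by contrast, the count over all genes rose slightly in PLA4 minus PL12 and fell slightly in PLA4 minus PLA. The cause was not tested. Where 1 library of a line is left out, the other is assumed to vary like the libraries of the other lines.

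Counts over all genes moved too. The 371 genes that passed in each comparison of a PLA with a PL line were 132 with the replicate block and 830 under DESeq2. The 660 called in PLA4 against each other line were 286 and 1316, the 1593 of PLA4 minus PL1 were 551 and 3733, and the 0 on summed profiles were 347 under DESeq2. Whether samples of equal number pair is not known here, and why calls were lost with the block was not tested.

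No difference called in the reported fit turned its direction. Among differences that were not called, Csf2 in PLA minus PL1 (-0.03) became 0.36 with limma on log2(TPM + 1), 0.47 on log2(TPM + 0.1) and 0.20 with the replicate block, and ran from -0.85 to 1.73 with libraries left out. Ccl2 in PLA4 minus PL1 (0.06) became -1.41 and -1.99 with limma and -0.32 with the block, with -7.56 to 3.42 on leaving out. On summed profiles Ccl2 (0.06) became -0.43 and -0.68 with limma, with -3.69 to 2.96 on leaving out. Cxcl15 in PLA4 minus PL12 (0.15) became -0.0073 with limma on log2(TPM + 0.1) and -0.31 with the block, with -1.14 to 0.84 on leaving out. The other turns came only with libraries left out. Ccl2 ran from -3.22 to 4.57 in PLA4 minus PL12 and from -3.79 to 3.92 in PLA4 minus PLA. Cxcl15 ran from -3.47 to 0.018 in PLA minus PL1, -3.53 to 1.84 in PLA4 minus PL1, -2.42 to 1.04 in PL12 minus PL1, -0.068 to 1.82 in PLA4 minus PLA and -2.74 to 0.61 on summed profiles. In PLA minus PL1, Cxcl1 ran from -0.55 to 0.21, Cxcl5 from -0.057 to 0.60 and Ccl20 from -1.76 to 0.73. In PLA4 minus PL1, Csf1 ran from -1.44 to 1.45 and Csf2 from -2.18 to 0.36. In PL12 minus PL1, Cxcl1 ran from -0.071 to 0.66 and Ccl20 from -0.66 to 1.80. The cause of these turns was not tested.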
